A study of Macaca mulatta with 24 samples.

Results

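The 10 genes described here code for oxidant-producing and antioxidant enzymes of the gut wall. The 4 oxidant-producing members were DUOX2, its maturation factor DUOXA2, NOX1 and NOS2, and the 6 defence members were SOD2, HMOX1, NQO1, GCLC, GPX2 and TXNRD1. The choice was by gene name and applied no threshold to a measured value, although earlier results of these data were known, and every array probe with a matching name was kept. In all, 17 probes carried the symbols of 9 of the genes, and 1 further probe, which the array lists as dual oxidase 2-like, belonged to DUOX2 through its gene ID in RefSeq. This gave 18 of 43603 probes and 10 of 14738 named genes tested.

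Epithelial dual oxidases release hydrogen peroxide at the mucosal surface, NOX1 makes superoxide in the colon epithelium, and inducible nitric oxide synthase (NOS2) makes nitric oxide during inflammation. NRF2 is a transcription factor that is released from its inhibitor KEAP1 under oxidative or electrophilic stress and switches on genes for glutathione synthesis, thioredoxin recycling and quinone reduction. Of the defence members, NQO1, GCLC, TXNRD1, HMOX1 and GPX2 are known NRF2 targets, whereas SOD2, the mitochondrial superoxide dismutase, is best known as a target of NF-κB.

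RNA from colon of young adult male rhesus macaques was hybridised to 24 1-colour Agilent arrays, 1 array per animal, without pooling. Total-body irradiation (TBI) was a single uniform gamma dose from a cobalt-60 source. The groups were 4 unirradiated controls (0 Gy, labelled day 4), 4 animals each on day 4 after 6.7 Gy, day 4 after 7.4 Gy, day 7 after 6.7 Gy and day 7 after 7.4 Gy, and 2 animals each on day 12 after 6.7 Gy and day 12 after 7.4 Gy. The same 4 controls served in all comparisons of irradiated with unirradiated colon, so these comparisons are not independent of each other.

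Each array detected 66.6% to 84.8% of its probes above background, and log2 signals of named genes correlated between animals of a group with r from 0.957 to 0.985. The RNA came from whole gut tissue, so it held several cell types. All 8 tested epithelial markers were well above background on every control array, as were all 6 fibroblast and all 5 endothelial markers. The arrays lay on 6 slides of 4 positions. The controls all lay at position 1, which also held 6.7 Gy day 4 replicates 1 and 2, while position 2 held the other day 4 arrays and positions 3 and 4 the arrays of days 7 and 12. The controls, the 6.7 Gy day 4 animals and both day 7 groups were each divided equally between 2 scan days, while all arrays of 7.4 Gy day 4 and of day 12 were scanned on the second. Scaling on spike-in controls moved the median change of all probes against control upwards by 0.11 to 0.29 log2 units, and the split of all called probes on day 4 moved with it, from 698 higher and 680 lower to 1282 and 396 after 6.7 Gy, and from 1286 higher and 1408 lower to 2604 and 788 after 7.4 Gy.

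Levels below are log2 signals relative to the 75th percentile of the same array, so that 0 is the level of that percentile and 1 unit is a 2-fold step. Levels of different probes cannot be compared with each other. Each gene is represented by its brightest probe unless stated. A gene was called changed where limma's adjusted p over all probes tested was below 0.05 and the change was at least 2-fold.

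Radiation raised members of both classes on day 4, and none of the 10 genes fell by the test. After 6.7 Gy, 3 of 10 members were called, NOS2, SOD2 and GPX2, against 4.08% of all named genes. After 7.4 Gy, 6 of 10 were called, DUOX2, DUOXA2, NOS2, SOD2, GPX2 and TXNRD1, against 8.05% of all named genes. DUOXA2 entered the test through irradiated arrays alone, because no control array detected it above background, and without it the count after 7.4 Gy was 5. The median change of the 10 members was 1.20 log2 units after 6.7 Gy and 1.31 after 7.4 Gy, where the median of all named genes was -0.04 and -0.03. In 6 members after 6.7 Gy and 7 after 7.4 Gy every irradiated animal lay above every control, which held for 8.85% and 13.1% of all named genes. DUOXA2 was among the 7, and without it these were the same 6 members at both doses.

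**Figure D1:**
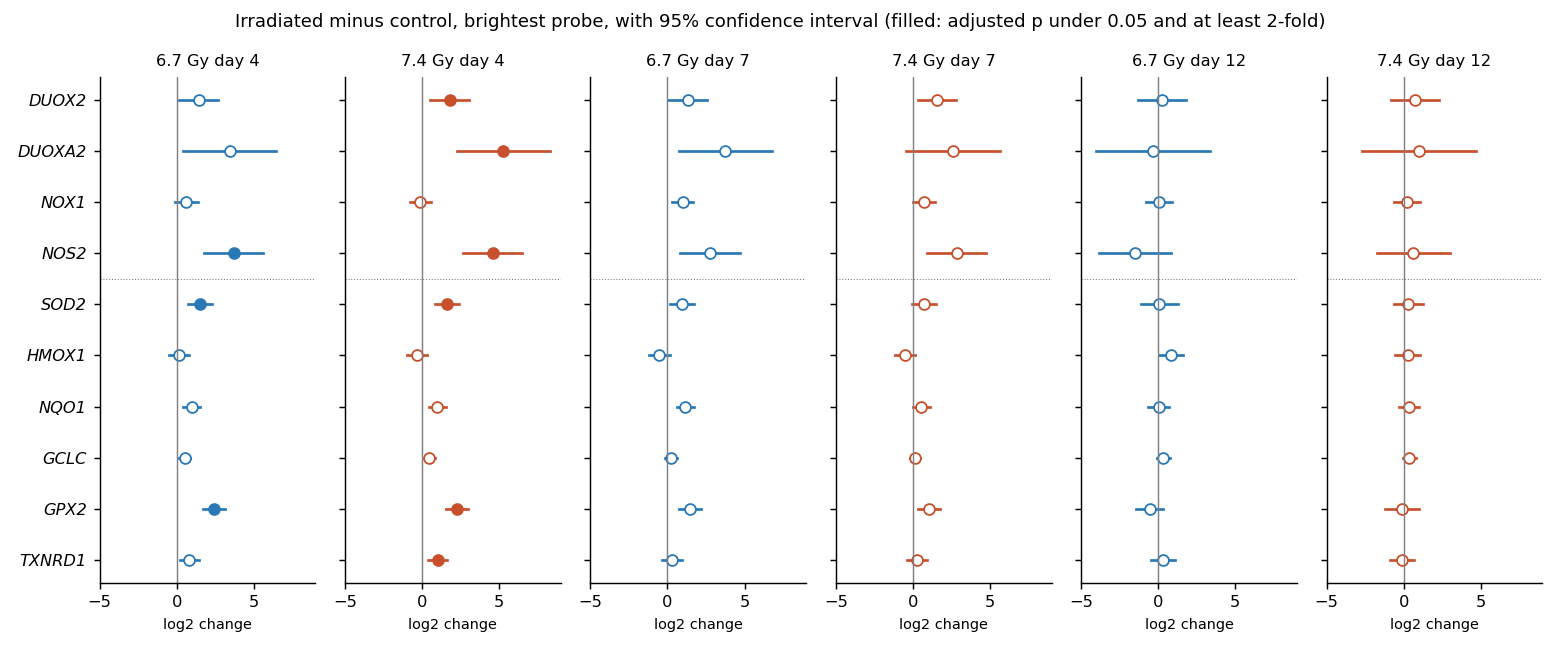
Log2 change of each of the 10 members (rows; oxidant-producing enzymes above the dotted line, antioxidant enzymes below) in the 6 irradiated groups against the 4 controls, brightest probe, with 95% confidence intervals; filled circles passed the test. Filled circles occur on day 4 alone, 3 after 6.7 Gy and 6 after 7.4 Gy, and the intervals of DUOXA2 and NOS2 are the widest.

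NOS2, the inducible nitric oxide synthase, showed the largest called change of the 10 genes after 6.7 Gy. Its level was -1.77, -0.60, -0.21 and -0.87 in the 4 control animals. On day 4 it was 2.96, 1.61, 2.0 and 4.76 after 6.7 Gy. After 7.4 Gy it was 4.90, 2.21, 4.62 and 3.11. Every day 4 animal lay well above every control. NOS2 rose 13.0-fold after 6.7 Gy (log2 change 3.70 ± 0.92 SE, adjusted p = 0.017) and 23.8-fold after 7.4 Gy (4.57 ± 0.92, adjusted p = 0.00209; n = 4 per group). Without control replicate 1 the change after 6.7 Gy was 3.39 with an adjusted p of 0.0501.

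The 2 other NOS2 probes moved in the same direction. One of them was well above background on 1 of 4 control arrays and on all day 4 arrays, with log2 changes of 4.14 after 6.7 Gy (adjusted p = 0.0113) and 5.19 after 7.4 Gy (adjusted p = 0.00105). No control array detected the other above background, so it entered the test through irradiated arrays alone. After 7.4 Gy all 4 day 4 arrays detected it, and it gave at least 2.20-fold more signal (adjusted p = 0.00773). After 6.7 Gy 1 of 4 arrays detected it, too few for a bound on the fold, and the test was not passed (adjusted p = 0.0562).

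DUOX2 makes hydrogen peroxide at the apical membrane. Its level was -5.47, -3.91, -3.15 and -2.38 in the controls, the first of which was not well above background. On day 4 it was -2.10, -3.69, -2.29 and -1.07 after 6.7 Gy. After 7.4 Gy it was -0.98, -2.86, -1.12 and -2.75. The day 4 values overlapped the controls in both dose groups, although all 8 irradiated animals exceeded the control mean of -3.73. DUOX2 rose 3.49-fold after 7.4 Gy (log2 change 1.80 ± 0.60 SE, adjusted p = 0.0407), and the 2.71-fold difference after 6.7 Gy did not pass the test (adjusted p = 0.134). The call after 7.4 Gy was lost without control replicate 1 (log2 change 1.22, adjusted p = 0.148), control replicate 2 (1.74, adjusted p = 0.0789), 7.4 Gy replicate 1 (1.49, adjusted p = 0.13) or 7.4 Gy replicate 3 (1.53, adjusted p = 0.114). Against the 2 controls of the same scan day the DUOX2 difference after 7.4 Gy was 0.84, and after 6.7 Gy it was 3.01 on the first scan day and -0.13 on the second.

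DUOXA2, which carries DUOX2 out of the endoplasmic reticulum, varied most among the irradiated animals. All 4 controls, from -7.61 to -6.76, were not well above background. On day 4 the values were -3.91, -8.26, -3.25 and -0.07 after 6.7 Gy, of which the second was not well above background. After 7.4 Gy they were 0.54, -5.16, -0.04 and -3.49, all well above background and above every control. DUOXA2 was thus at least 12.1-fold higher after 7.4 Gy than in control (adjusted p = 0.0155), a call that was lost without replicate 1 or 3 of that group (adjusted p = 0.0618 and 0.0535). After 6.7 Gy it was at least 3.37-fold higher by the group mean, without passing the test (adjusted p = 0.138), and without replicate 2 of that group DUOXA2 was called (at least 9.28-fold higher, adjusted p = 0.0364). The second DUOXA2 probe was well above background on few arrays (1 of 4 controls, none of 4 after 6.7 Gy and 2 of 4 after 7.4 Gy on day 4) and its fitted change lay between -0.05 and -0.03 on day 4.

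NOX1, the catalytic subunit of the colon epithelial NADPH oxidase, was not called in any comparison. In the controls its level was confined to -0.09 to 0.14. On day 4 it was 0.49, -0.18 and 1.57 after 6.7 Gy, where 1 array was left out because the spot was a scanner outlier, and 0.56, -0.29, -0.75 and 0.05 after 7.4 Gy. The change was 0.62 (95% confidence interval -0.12 to 1.37) and -0.11 (-0.80 to 0.58). The second NOX1 probe gave 0.71 and -0.16, neither of which passed the test.

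**Figure D2:**
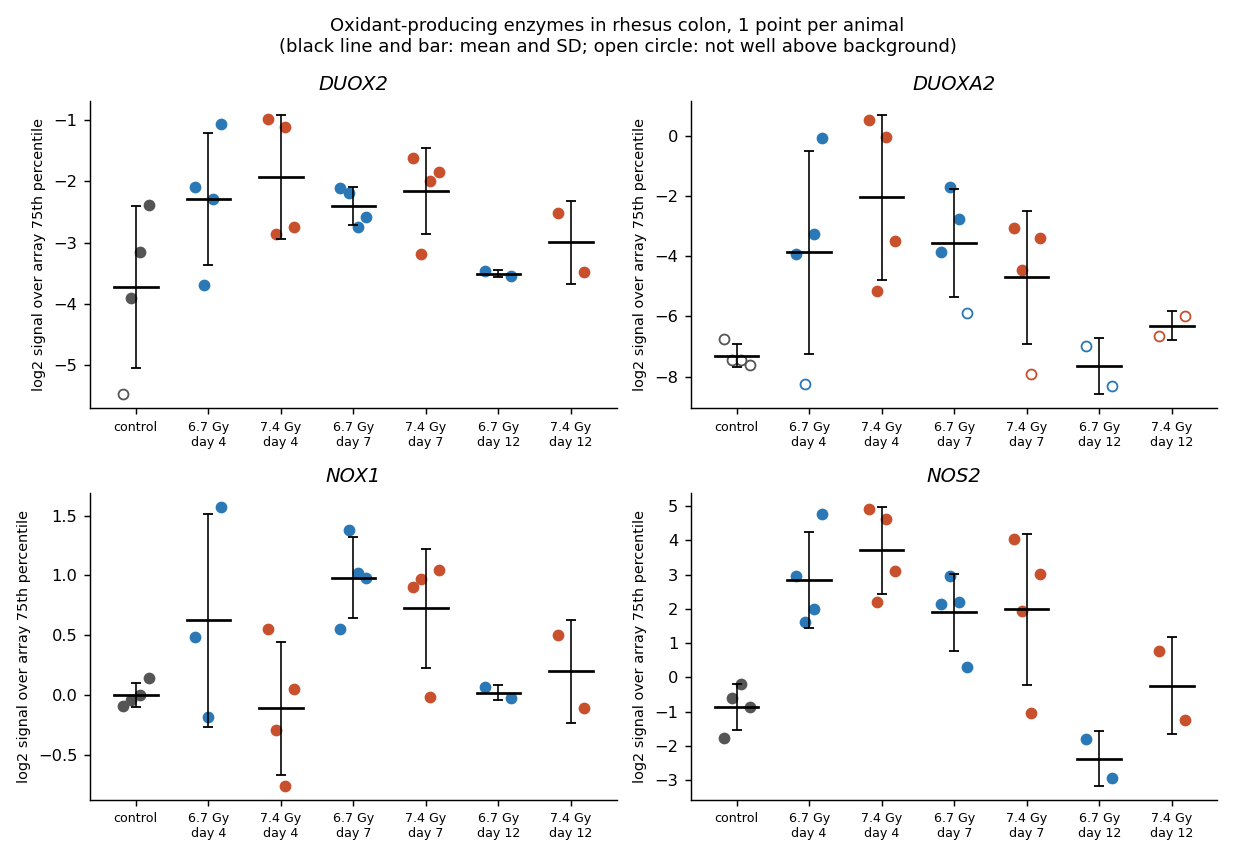
Log2 signal relative to the array's 75th percentile (y axes, 1 scale per gene) of the 4 oxidant-producing enzymes in the 7 groups (x axes), 1 point per animal, with the mean and SD; open circles were not well above background. NOS2 lies above all controls in every day 4 animal, while DUOXA2 runs from background to 0.54 within the day 4 groups and NOX1 overlaps the controls.

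Of the 3 called defence members, GPX2 had the smallest SD within each day 4 group. GPX2 is the epithelial glutathione peroxidase of the gut. Its level was 3.52, 3.70, 4.00 and 4.05 in the controls. On day 4 it was 6.29, 6.13, 6.24 and 6.31 after 6.7 Gy. After 7.4 Gy it was 6.35, 5.58, 6.26 and 6.13. The 8 irradiated animals stood clear of the controls, and the SD after 6.7 Gy was 0.08 log2 units. GPX2 rose 5.38-fold after 6.7 Gy (log2 change 2.43 ± 0.34 SE, adjusted p = 0.000501) and 4.8-fold after 7.4 Gy (2.26 ± 0.34, adjusted p = 0.000234).

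SOD2 converts superoxide to hydrogen peroxide in mitochondria. Its level was 2.01, 1.69, 2.21 and 1.67 in the controls. It was 2.97, 4.06, 3.06 and 3.59 on day 4 after 6.7 Gy, and 3.91, 2.43, 4.60 and 3.14 after 7.4 Gy. All irradiated animals exceeded all controls, narrowly so in 1 animal of the higher dose. SOD2 rose 2.87-fold (log2 change 1.52 ± 0.37 SE, adjusted p = 0.0151) and 3.08-fold (1.62 ± 0.37, adjusted p = 0.00497).

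TXNRD1, which reduces thioredoxin, and NQO1, which reduces quinones, both lay near the 2-fold limit. TXNRD1 was 3.48, 3.33, 2.70 and 2.80 in the controls. It was 3.69, 4.12, 3.92 and 3.85 after 6.7 Gy on day 4, and 4.51, 3.51, 4.49 and 3.81 after 7.4 Gy. The irradiated animals did not overlap the controls. The TXNRD1 change was called after 7.4 Gy at the limit itself (2.0-fold, log2 change 1.0 ± 0.30 SE, adjusted p = 0.0252), and not after 6.7 Gy (log2 0.82, adjusted p = 0.0912). Its other probes gave 0.95 (adjusted p = 0.0277) and 0.77 (adjusted p = 0.0863) after 7.4 Gy, both below 2-fold. The call was lost without control replicate 3 or 4 or without 7.4 Gy replicate 1 or 3 (log2 changes from 0.86 to 0.91, adjusted p from 0.0711 to 0.0867).

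NQO1 was 1.82, 1.83, 0.98 and 1.97 in the controls. It was 2.69, 1.99, 2.54 and 3.26 on day 4 after 6.7 Gy, and 3.13, 2.16, 2.80 and 2.45 after 7.4 Gy. All 8 irradiated animals lay above all 4 controls, by a narrow margin in 1 animal. The log2 change was 0.97 ± 0.26 SE after 6.7 Gy and 0.98 ± 0.26 after 7.4 Gy, with adjusted p of 0.0254 and 0.0129, so that the test was passed and the 2-fold limit was not. The 2 other probes gave 1.06 and 1.02 after 6.7 Gy, both called, and 0.99 and 1.16 after 7.4 Gy, of which the latter was called. The brightest probe passed the 2-fold limit at both doses without control replicate 1, 2 or 4, after 6.7 Gy without replicate 2 and after 7.4 Gy without replicate 2 or 4 (log2 changes from 1.02 to 1.18). Without control replicate 3 the NQO1 change was 0.74 after 6.7 Gy (adjusted p = 0.0844) and 0.76 after 7.4 Gy (adjusted p = 0.048).

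GCLC, the catalytic subunit of the enzyme that limits glutathione synthesis, and HMOX1, which degrades haem, were not called. GCLC ranged from -0.13 to 0.34 in the controls, from 0.64 to 0.67 in the 3 measured animals of 6.7 Gy day 4 (1 scanner outlier left out) and from 0.39 to 0.87 after 7.4 Gy. These ranges did not overlap, but the differences were small, 0.52 (adjusted p = 0.0721) and 0.47 (adjusted p = 0.051). HMOX1 ranged from 2.66 to 3.42 in the controls, from 2.87 to 3.79 after 6.7 Gy and from 1.94 to 3.58 after 7.4 Gy. Its change was 0.15 (95% confidence interval -0.51 to 0.80) and -0.32 (-0.97 to 0.34), with the ranges overlapping throughout.

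**Figure D3:**
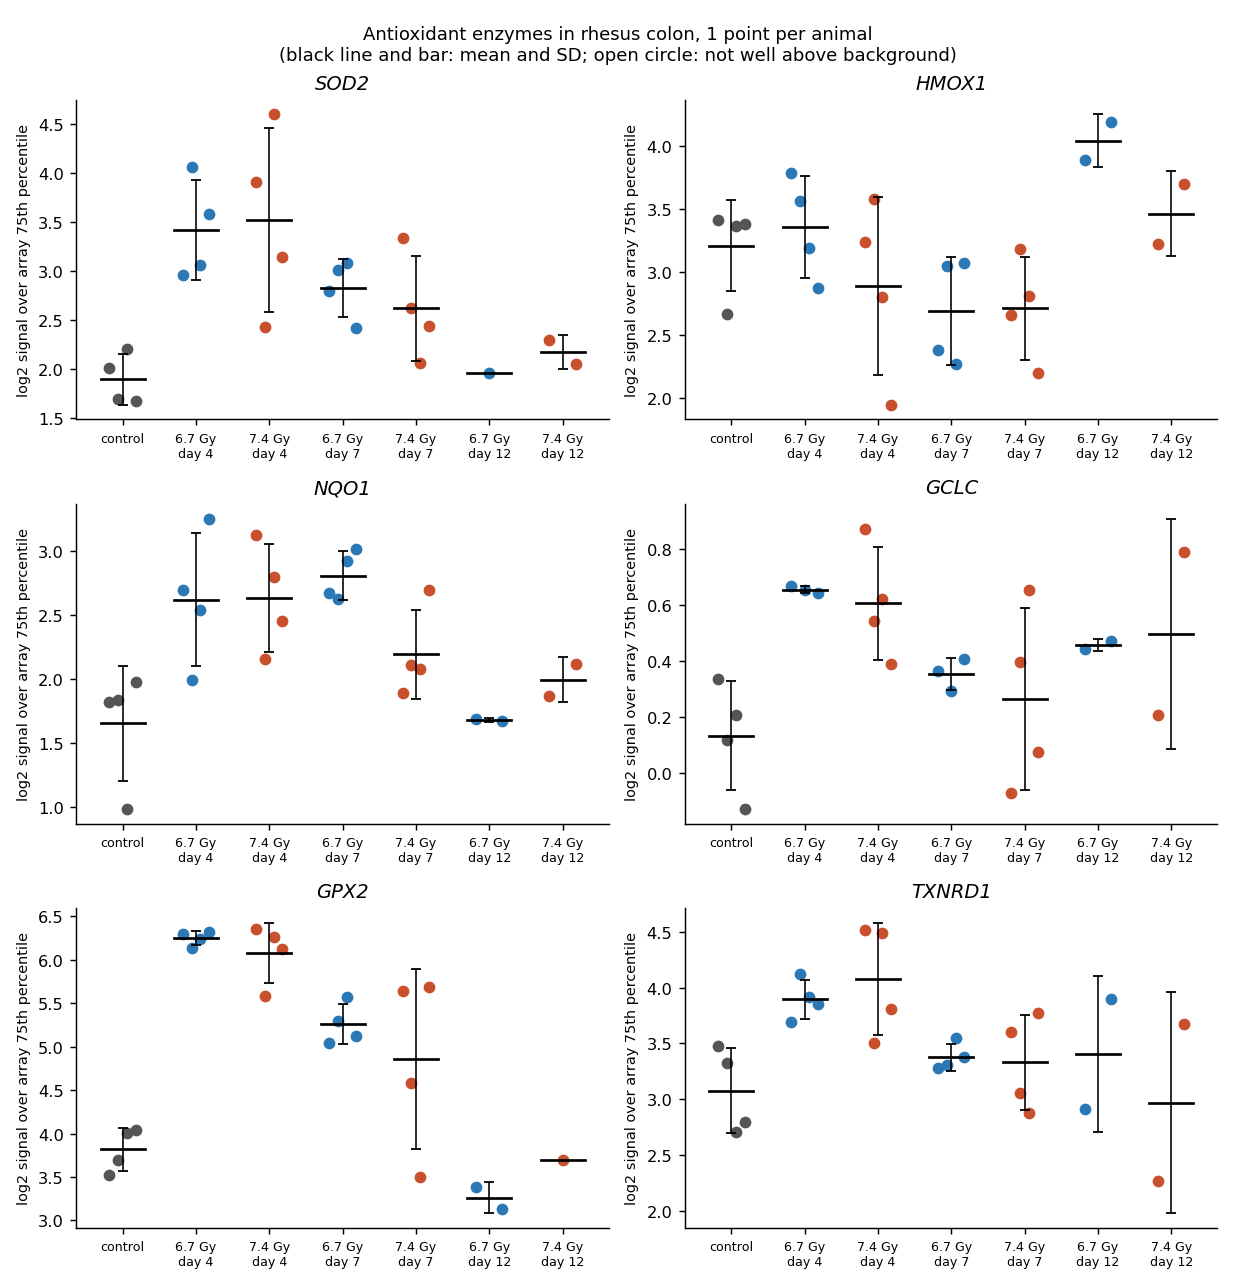
Log2 signal relative to the array's 75th percentile (y axes, 1 scale per gene) of the 6 antioxidant enzymes in the 7 groups (x axes), 1 point per animal, with the mean and SD. GPX2 lies at 5.58 or above in all day 4 animals and at 4.05 or below in all controls, whereas HMOX1 shows no separation on day 4.

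In these bulk tissue samples, fewer cells of a type and less RNA per cell cannot be told apart. Within position 1, the 6.7 Gy day 4 replicates 1 and 2 exceeded the controls by 3.15 log2 units for NOS2, 2.40 for GPX2 and 1.62 for SOD2, but by 0.84 for DUOX2 and 0.69 for NQO1. With position as a fixed block, 1 member was called after 7.4 Gy, GPX2. NOS2 then changed by 3.48 (adjusted p = 0.172), SOD2 by 1.81 (adjusted p = 0.0824), TXNRD1 by 1.02 (adjusted p = 0.268), and DUOX2 by 0.59 (adjusted p = 0.782), and DUOXA2 had an adjusted p of 0.864. In that fit after 6.7 Gy, NOS2 changed by 3.15 (adjusted p = 0.0897).

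Day 7 brought no called member at either dose. The counts were 0 of 10 after 6.7 Gy and 0 of 10 after 7.4 Gy, where 0.387% and 0.468% of all named genes were called by limma. At an unadjusted limma p below 0.05, 7 members passed after 6.7 Gy and 4 after 7.4 Gy, as did 10.4% and 12.4% of all named genes. The methods' t-test with the 2-fold limit called 0 members after adjustment, and before it 4 and 1, where 2.13% and 2% of all named genes were called. DUOXA2, which no control array detected above background, was among the 7 and among the 4 after 6.7 Gy. The 1 after 7.4 Gy was NOS2. The median change of the members, DUOXA2 included, was 1.07 and 0.72 log2 units, with all named genes at -0.02 and 0.01.

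Several members nevertheless lay apart from the controls after 6.7 Gy on day 7. The ranges of NOX1, NOS2, GPX2, SOD2 and NQO1 lay wholly above the controls, which was true of 4.01% of all named genes in that comparison. DUOXA2 is not counted, because replicate 4 (-5.88) was, like the controls, not well above background. GPX2 was 5.05, 5.30, 5.57 and 5.12 (log2 change 1.44, adjusted p = 0.0713). NQO1 was 2.67, 2.63, 2.92 and 3.02 (log2 change 1.16, adjusted p = 0.0581). All 3 NQO1 probes were above 2-fold in this group, and 1 of them was called (log2 change 1.31, adjusted p = 0.0418). NOS2 was 2.14, 2.97, 2.20 and 0.31 (log2 change 2.77, adjusted p = 0.261). NOX1 was 0.55, 1.38, 1.02 and 0.98, the highest NOX1 group mean of the series (log2 change 0.98, adjusted p = 0.271).

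After 7.4 Gy on day 7, no member lay wholly above the controls, where 3.66% of all named genes did. Replicate 3 of this group held the lowest NOS2, GPX2 and DUOXA2 levels, while its DUOX2 level of -2.0 was above every control. NOS2 was 4.03, 1.94, -1.05 and 3.01, GPX2 was 5.64, 4.58, 3.50 and 5.69, and DUOXA2 was -3.07, -4.46, -7.91 and -3.39, of which the third was not well above background. Without it, NOS2 (log2 change 3.86, adjusted p = 0.0287) and GPX2 (1.49, adjusted p = 0.00889) were called. On the slide that held the array of replicate 3 and control replicate 1, the differences were 0.72 for NOS2 and -0.02 for GPX2, against 3.61 and 1.99 on the other shared slide.

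Day 12 rested on 2 animals per dose, and no member was called, where 0.0136% of all named genes were called after 6.7 Gy and 0.0204% after 7.4 Gy. At an unadjusted limma p below 0.05, 1 member passed after 6.7 Gy and 0 after 7.4 Gy, as did 7.5% and 7.02% of all named genes. The methods' t-test called 0 members after adjustment, and before it 0 and 1, where 1.18% and 0.991% of all named genes were called. That 1 was DUOXA2, which neither the 7.4 Gy day 12 arrays nor the controls detected above background, so it is no measured change. After 6.7 Gy, 2 members lay wholly above the controls, HMOX1 and GCLC, and 2 wholly below, NOS2 and GPX2, where 12.7% of all named genes lay wholly above and 5.73% wholly below. NOS2 was -1.81 and -2.93 after 6.7 Gy and 0.76 and -1.24 after 7.4 Gy. GPX2 was 3.39 and 3.14 after 6.7 Gy and 3.70 in the 1 animal measured after 7.4 Gy, the other spot being a scanner outlier. SOD2 was 1.96 in the 1 animal measured after 6.7 Gy and 2.30 and 2.06 after 7.4 Gy. DUOXA2 was not well above background in any of the 4 animals. HMOX1 was 3.89 and 4.19 after 6.7 Gy, the highest group of the series, and 3.22 and 3.70 after 7.4 Gy, with log2 changes of 0.83 (95% confidence interval 0.03 to 1.63, adjusted p = 0.687) and 0.25 (-0.55 to 1.06).

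Ordered by group mean, NOS2 and SOD2 were highest on day 4 after 7.4 Gy, followed by day 4 after 6.7 Gy and then the day 7 groups. For GPX2 the order was day 4 after 6.7 Gy (6.24), day 4 after 7.4 Gy (6.08), day 7 after 6.7 Gy (5.26), day 7 after 7.4 Gy (4.85), control (3.82), day 12 after 7.4 Gy (3.70, 1 animal) and day 12 after 6.7 Gy (3.26). In the GPX2 order, the neighbours whose ranges did not overlap were 7.4 Gy day 4 and 6.7 Gy day 7, and the pair of day 12 groups. For NOS2, the neighbouring ranges overlapped down to the controls, which lay above the 6.7 Gy day 12 animals. For DUOX2, all neighbours overlapped.

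The days were compared over both doses to test the course itself. From day 4 to day 7, 1 of 10 members was called, against 4.85% of all named genes: GPX2 fell by 1.11 log2 units (± 0.24 SE, adjusted p = 0.00259; 8 animals each), with all 8 day 7 animals below the day 4 mean. Without 7.4 Gy day 7 replicate 3, the fall in GPX2 was 0.88 log2 units, below the 2-fold limit (adjusted p = 0.00139). SOD2 and TXNRD1 passed the test below 2-fold, at -0.75 (adjusted p = 0.0411) and -0.63 (adjusted p = 0.0349).

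From day 4 to day 12, 4 of 10 members were called, all lower, where 3.32% of all named genes were called lower. DUOXA2 was among the 4, although no day 12 array detected it above background. The others were NOS2, GPX2 and SOD2. NOS2 dropped by 4.58 log2 units (± 0.80 SE, adjusted p = 0.000524), a 23.9-fold difference. NOS2, GPX2 and SOD2 lay below every day 4 animal in every day 12 animal measured, which held for 7.03% of all named genes. GPX2 dropped by 2.68 (± 0.34, adjusted p = 4.87e-05; 3 animals measured on day 12). SOD2 dropped by 1.40 (± 0.37, adjusted p = 0.0101; 3 animals measured on day 12). DUOXA2 was at least 6.38-fold lower (adjusted p = 0.0254), a call that was lost without any single day 12 animal (adjusted p from 0.0542 to 0.0916).

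From day 7 to day 12, 0 of 10 members were called, against 0.136% of all named genes by limma. Here 6 members passed an unadjusted limma p below 0.05, as did 10% of all named genes. The methods' t-test called 0 members after adjustment and 4 before it, where 1.27% of all named genes were called. The 4 were NOS2, HMOX1, GPX2 and DUOXA2, of which DUOXA2 was not detected above background on any day 12 array. HMOX1 stood out in direction, with all 4 day 12 animals above all 8 day 7 animals (log2 difference 1.05 ± 0.27 SE, adjusted p = 0.146), which held for 0.957% of all named genes. NOS2 differed by -3.25 (adjusted p = 0.122) and GPX2 by -1.58 (adjusted p = 0.0685), and without 7.4 Gy day 7 replicate 3 both were called (adjusted p = 0.0205 and 0.00133).

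The higher dose was not distinguishable from the lower for any member. On days 4, 7 and 12, 0 of 10 members were called between doses, and 0% of all named genes were called on each day by limma. At an unadjusted limma p below 0.05, 0, 1 and 0 members passed, as did 7.19%, 1.78% and 3.57% of all named genes. The methods' t-test called 0 members on each day, also before adjustment, where 0.611%, 0.19% and 0.414% of all named genes were called. On day 4, NOS2 was 0.88 log2 units higher after 7.4 Gy (95% confidence interval -1.05 to 2.81), GPX2 differed by -0.16 (-0.87 to 0.54) and SOD2 by 0.10 (-0.67 to 0.87). The interval for DUOXA2 ran from -1.20 to 4.87. These intervals exclude a dose difference above 2-fold for GPX2 and SOD2, but not for NOS2 or DUOXA2. On day 7, NQO1 was lower after 7.4 Gy by the widest margin relative to its error (-0.62, 95% confidence interval -1.16 to -0.07, adjusted p = 1).

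The oxidant-producing enzymes were then set beside the defence enzymes within each animal, as the median change of the measured members of each class against the control means. This is a description with no test. On day 4, the median of the oxidant-producing class was -0.07 to 4.14 log2 units after 6.7 Gy and 1.51 to 4.25 after 7.4 Gy. The defence class gave 0.78 to 1.19 and 0.47 to 1.46. The oxidant-producing median had the wider range in both groups. It was above the defence median in 3 of 4 and 4 of 4 animals, and in 2 of 4 controls. The exception was 6.7 Gy day 4 replicate 2, where the defence class was at 0.78. In that animal DUOXA2 was at background, and DUOX2 (-3.69) was near its control mean of -3.73. On day 7 the oxidant-producing class was above the defence class in 4 of 4 animals after 6.7 Gy and in 3 of 4 after 7.4 Gy. The oxidant-producing median includes DUOXA2, whose values at background have no order and whose baseline in the controls was not detected. The median of the 3 other oxidant-producing enzymes, without DUOXA2, was also taken, a setting chosen after the values were seen. On day 4 it was 0.04 to 2.66 after 6.7 Gy and 0.87 to 2.75 after 7.4 Gy. It was again above the defence median in 3 of 4 and 4 of 4 animals, but also in 3 of 4 controls, where it was -0.91 to 0.58.

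**Figure D4:**
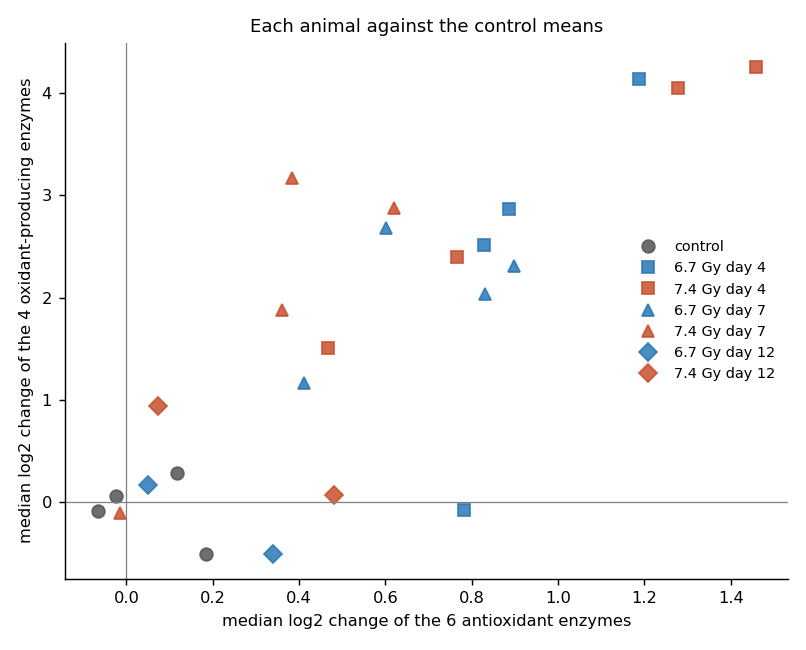
Each animal's median log2 change of the 6 antioxidant enzymes (x axis) and of the 4 oxidant-producing enzymes (y axis) against the control means, with 1 point per animal and the colour and shape giving the dose and day. Controls and day 12 animals lie between -0.51 and 0.94 on the y axis, and 7 of 8 day 4 animals lie above them.

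The wider pathway was taken from lists of named genes. Of 22 other oxidant-producing enzymes and their partners, 16 were tested. After 6.7 Gy on day 4, 0 of 16 were called by limma, where 4.08% of all named genes were. In the same comparison 7 had an unadjusted limma p below 0.05, and the methods' t-test called 1 before adjustment. No share of all named genes is given here for those counts, so they cannot be set against the general change on day 4. After 7.4 Gy, 1 rose and 2 fell, against 8.05% of all named genes called, and the list's median change was -0.33 against -0.03 for all named genes. CYBB, the catalytic subunit of the phagocyte oxidase, was 0.95 higher after 7.4 Gy, under the 2-fold limit (adjusted p = 0.0171). NOXA1, the epithelial activator of NOX1, fell by 1.31 (± 0.18 SE, adjusted p = 0.00011), from between 0.67 and 1.08 in control to between -0.93 and -0.13. MAOA, a mitochondrial amine oxidase that makes hydrogen peroxide, fell by 1.35 (± 0.23, adjusted p = 0.000528). NOXA1 and MAOA were higher on day 7 than on day 4 (1.01, adjusted p = 3.96e-05, and 1.22, adjusted p = 5.14e-05).

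Of 50 other antioxidant and NRF2 pathway genes, 45 were tested. After 6.7 Gy on day 4, 4 rose and 1 fell, against 4.08% of all named genes called, and the median change was 0.23 against -0.04 for all named genes. After 7.4 Gy, 8 rose and 1 fell, against 8.05% of all named genes called, with a median of 0.27 against -0.03. SLC7A11, the cystine importer that feeds glutathione synthesis, rose by 2.08 (± 0.40 SE, adjusted p = 0.00427) and 2.58 (± 0.40, adjusted p = 0.000292). Its level lay between -6.67 and -5.48 in the controls, of which 1 of 4 was well above background, and between -4.26 and -2.18 on day 4. With normexp background correction, the changes of SLC7A11 were 0.50 and 0.85, below 2-fold.

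ME1, a NADPH-producing malic enzyme, rose by 1.40 (± 0.19 SE, adjusted p = 0.000359) and 1.58 (± 0.19, adjusted p = 3.31e-05). TXN, or thioredoxin, rose by 1.52 (adjusted p = 0.0119) and 1.88 (adjusted p = 0.0012), and its other probes, each called at both doses, gave 1.39 to 2.01. SRXN1, which restores overoxidised peroxiredoxins, rose by 1.16 (adjusted p = 0.0209) and 1.60 (adjusted p = 0.00132). The SRXN1 call after 6.7 Gy was lost without control replicate 3 or 4 or 6.7 Gy replicate 2 or 3 (1.05 to 1.11, adjusted p from 0.0528 to 0.0617). The ranges of ME1, TXN and SRXN1 lay wholly above the controls at both doses.

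The other genes called after 7.4 Gy alone were PGD of the pentose phosphate pathway (1.36, adjusted p = 0.0369), the peroxiredoxin PRDX1 (1.27, adjusted p = 0.00124), and the glutathione peroxidases GPX7 (1.08, adjusted p = 0.013) and GPX1 (1.07, adjusted p = 0.00131). These 4 were named after their values were seen. The PGD call was lost without control replicate 1, 3 or 4 or 7.4 Gy replicate 1, 3 or 4 (1.04 to 1.45, adjusted p from 0.0527 to 0.133), and the GPX7 call without control replicate 4 or 7.4 Gy replicate 3 (0.93 and 0.83). GPX1 fell just under the 2-fold limit without control replicate 3 or 4 or 7.4 Gy replicate 3 (0.95 to 0.99). PRDX6, a peroxiredoxin with phospholipase activity, went the other way. Its level was 6.58 to 7.45 in the controls, 5.28 to 5.99 after 6.7 Gy and 4.50 to 5.33 after 7.4 Gy, with no overlap. PRDX6 fell by 1.39 (± 0.34 SE, adjusted p = 0.0154) and by 2.20 (± 0.34, adjusted p = 0.000279), and its second probe fell by 1.48 and 2.16.

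**Figure D5:**
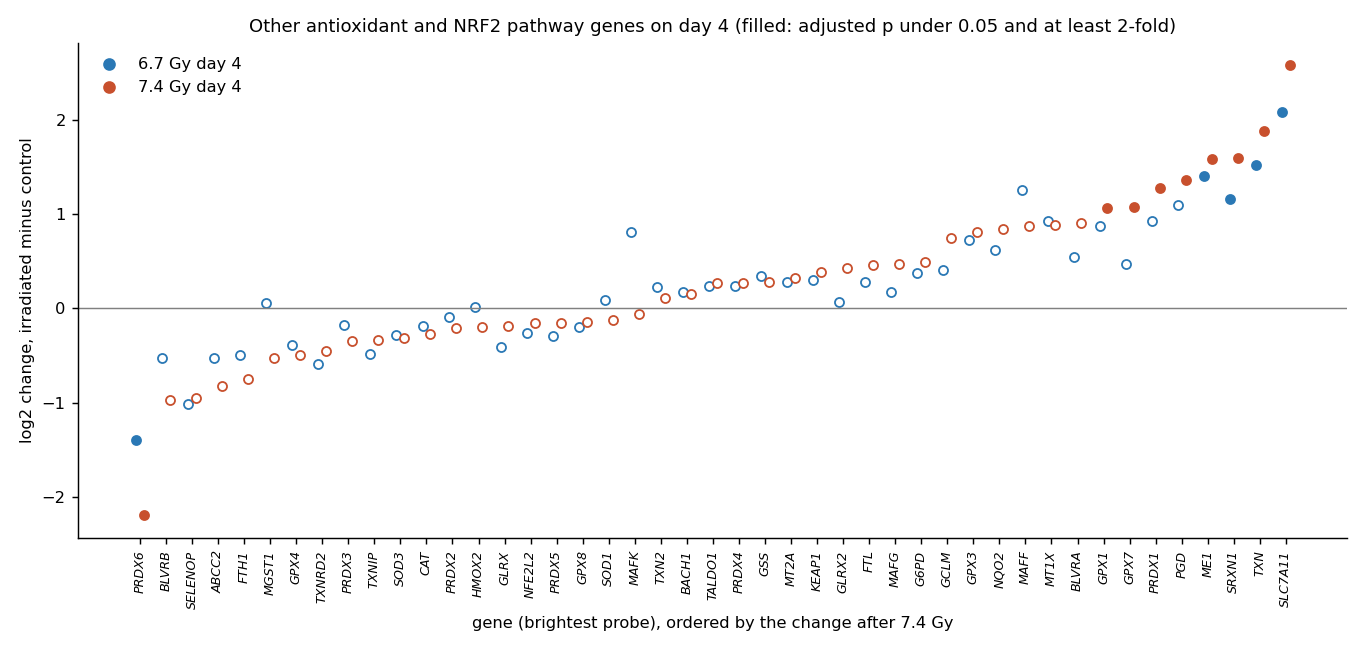
Log2 change of the 45 tested genes of the wider antioxidant and NRF2 pathway list on day 4 against control, for 6.7 Gy and 7.4 Gy, ordered by the change after 7.4 Gy; filled circles passed the test, and both doses share the same 4 controls. SLC7A11, TXN, SRXN1 and ME1 are filled at both doses at the upper end and PRDX6 at the lower end.

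On days 7 and 12, 0 of 45 genes of this list and 0 of 16 of the oxidant list were called against control at either dose by limma. Of all named genes, 0.387% and 0.468% were called on day 7 and 0.0136% and 0.0204% on day 12. At an unadjusted p below 0.05, 11 and 13 of the 45 passed on day 7 and 6 and 6 on day 12. Of the 16, 4 and 2 passed on day 7 and 1 and 1 on day 12. The share of all named genes was 10.4% and 12.4% on day 7 and 7.5% and 7.02% on day 12. The methods' t-test before adjustment called 2, 2, 2 and 1 of the 45 and 2, 2, 0 and 1 of the 16. It called 2.13%, 2%, 1.18% and 0.991% of all named genes. From day 4 to day 12, 6 of the 45 fell and 2 rose, where 7.35% of all named genes were called and 3.32% were called lower. ME1 fell by 1.85 (adjusted p = 2.25e-06), PGD by 1.90, SLC7A11 by 1.77, SRXN1 by 1.45, TXN by 1.44 and PRDX1 by 1.17, and PRDX6 rose by 1.79 (adjusted p = 0.000339). The transporter ABCC2 rose by 2.15 (adjusted p = 1.37e-05) without being called in any irradiated group against control.

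Some markers of cell types moved on the same day, when 4.08% of all named genes were called after 6.7 Gy and 8.05% after 7.4 Gy. Of 9 tested surface colonocyte markers, 6 were called lower after 6.7 Gy and 7 after 7.4 Gy, among them CA1 (-6.05 and -7.46) and SLC26A3 (-2.96 and -4.33). The summed linear level of these markers, relative to the array's 75th percentile, was 459 to 762 in control, 110 to 250 after 6.7 Gy (3 arrays with all markers measured) and 44.5 to 237 after 7.4 Gy on day 4. Of 8 epithelial markers, 3 were called lower at each dose, VIL1, CDX2 and LGALS4, and their summed level was 694 to 903 in control and 338 to 575 and 353 to 430 on day 4. Of 6 tested neutrophil markers, 0 were called higher after 6.7 Gy and 3 after 7.4 Gy, among them S100A8 (3.61) and S100A9 (2.23), whereas CD177 was lower at both doses (-2.02 and -2.64). The summed level of the neutrophil list was 15.2 to 22.8 in control, 5.69 to 9.0 after 6.7 Gy and 3.79 to 13.6 after 7.4 Gy. Each of its 6 markers was above background in some array of every group. A linear sum weighs the brightest markers most. Taken singly, 4 of the 6 markers were higher at both doses, and the median change of the list was 0.79 and 1.03 log2 units. Of 9 macrophage markers, 1 was called higher after 7.4 Gy, MRC1 (1.0). Their summed level was 75.6 to 116 in control and 94.9 to 140 and 118 to 162 on day 4, and no control array detected MARCO above background. The part of these shifts in the changes of NOS2, GPX2 and the other genes was not tested.

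Of the remaining marker lists on day 4, 0 of 7 goblet cell, 0 of 6 fibroblast and 0 of 5 endothelial markers were called after 6.7 Gy. After 7.4 Gy, 2 fell, 2 rose and 1 rose. These counts stand beside 4.08% and 8.05% of all named genes called. Of 4 crypt base markers, 1 rose after 7.4 Gy, while of 4 red blood cell markers 2 fell after 6.7 Gy and 1 after 7.4 Gy, and HBB fell by 5.94 and fell by 5.96 log2 units. None of the 3 smooth muscle, 6 T lymphocyte and 6 B and plasma cell markers was called on day 4.

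Among 13911 other named genes measured on every array, those whose level followed DUOX2 most closely over the 24 arrays were KRT1 (Pearson r = 0.81), STX10 (0.79) and ERO1L (0.77). NOS2 ranked 13 with r = 0.74 and DUOXA2 ranked 22 with 0.72. The genes most like NQO1 were PIR (0.88), AKR1C4 (0.82) and LOC722480 (0.82), and DUOXA2 ranked 10 with r = 0.78. HMOX1 ran weakly opposite to both, with r of -0.37 to DUOX2 and -0.42 to NQO1. These correlations are descriptions across arrays that share the same groups.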

How the data were processed

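Colon RNA of 24 animals was labelled with Cy3 and hybridised to 4-array slides. The deposited intensity values are processed spot signals that the authors' scanner software (Agilent Feature Extraction) had background-subtracted and detrended, with no scaling between arrays. The authors also deposited a series table of log2 values scaled to the 75th percentile and centred on each probe's median, which was used as an alternative.

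From the scanner files, log2 processed signals minus the array's 75th percentile were computed, control spots and spots marked as outliers were left out, and spots of 1 probe were averaged. Probes well above background on at least 2 of 24 arrays were kept (38220). The methods name a t-test with Benjamini-Hochberg adjustment at 0.05 and a 2-fold limit. Here, limma 3.58.1 in R 4.3.3 (lmFit, eBayes) was fitted to all 7 groups with Benjamini-Hochberg adjustment over all probes tested, and the methods' t-test, before and after adjustment, was an alternative. The procedure was tested on simulated data. Alternatives were normexp correction, other scalings (median, quantile, spike-in), other filters, slide, position, scan day and replicate number as blocks, and single animals left out. Samples were grouped by the dose and day of their labels; a text label gives another last day than the sample labels, which were followed.

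A gene's brightest tested probe represents it. Named were all 10 members, up to 4 called genes per direction, list and irradiated group of 2 wider lists, and the 3 genes most correlated with DUOX2 and with NQO1. Bounds ("at least") divide the brighter group's mean by a floor: on each array of the dimmer group, the probe's signal or, if higher, the weakest signal that counted as detected. The members and lists were chosen with earlier results of these data known. Array number limits precision, and p-values measure the spread between animals. Sequences were not used here. Values of a few called genes of the wider lists are not reported here.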

Additional observations from a re-analysis of the deposited data

Results flagged for a closer look

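Of 47 sets of 4 animals checked for a value apart from the rest, 3 held one, and chance alone gives about 1 in 20. NOX1 was -0.0174 in 7.4 Gy day 7 replicate 3, HMOX1 was 2.66 in control replicate 2, and NQO1 was 0.98 in control replicate 3. The 7.4 Gy day 7 replicate 3 array also had the lowest NOS2, GPX2 and DUOXA2 of its group. Without control replicate 3, NQO1 differed from control by 0.74 after 6.7 Gy (adjusted p = 0.0844) and 0.76 after 7.4 Gy (adjusted p = 0.048) on day 4.

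Differences between days, tested over both doses, were flagged for 4 members. GPX2 was lower on day 7 than on day 4 by -1.11 log2 units. From day 4 to day 12 the differences were -4.58 for NOS2, -2.68 for GPX2, -1.40 for SOD2 and -4.02 for DUOXA2, the last against day 12 arrays that were not well above background. Array position changed with day, since day 4 arrays lay at positions 1 and 2 and later arrays at positions 3 and 4, so that position and day cannot be told apart in these differences.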

How the results depend on the processing

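Of 14 called differences of single members, 3 passed under every alternative that could be fitted. They were GPX2 on day 4 after 6.7 Gy (2.25 to 2.63), and NOS2 (-5.08 to -3.89) and GPX2 (-2.77 to -2.54) from day 4 to day 12. TXNRD1 after 7.4 Gy was called under 14 of 26 alternatives and DUOX2 under 15 of 26. With blocks for array position and scan day together, DUOX2 reversed to -0.47 after 7.4 Gy (adjusted p = 0.917), and the counts of called members were 1 after 6.7 Gy and 0 after 7.4 Gy on day 4. Position as a fixed block left 1 after 7.4 Gy; as a random block it gave 1 on day 7 after 6.7 Gy (NQO1). As a fixed block, alone or with scan day, it could not be fitted for days 7 and 12 against control, since no control lay at their positions. Nor could it be fitted from day 4 to day 7 or day 12, since day 4 shared no position with the later days. The calls between those days were therefore not tested against position. Why these counts moved was not tested.

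Normexp left 3 after 7.4 Gy on day 4. Normexp, spike-in scaling and the authors' table each gave 1 from day 7 to day 12. The stricter filter and the groups compared alone each gave 1 on day 7 after 6.7 Gy, and the latter left 2 from day 4 to day 12. The methods' t-test after adjustment left 1 and 2 on day 4. Without adjustment it gave 4 and 1 on day 7, 1 on day 12 after 7.4 Gy, and 4 from day 7 to day 12. DUOXA2, undetected in the controls and on day 12, was the 1 on day 12. It was also among the 4 on day 7 after 6.7 Gy and the 4 from day 7 to day 12. Without a fold limit, 3 members were called from day 4 to day 7.

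Leaving out single animals gave 3 to 5 members on day 4 after 6.7 Gy, 3 to 7 after 7.4 Gy, 0 to 2 on day 7 after 7.4 Gy, 0 to 1 from day 4 to day 7, 2 to 4 from day 4 to day 12 and 0 to 2 from day 7 to day 12. The 5 was reached without 6.7 Gy day 4 replicate 2, the 3 after 7.4 Gy without replicate 1 or without replicate 3, and the 2 from day 4 to day 12 without 6.7 Gy day 12 replicate 1. That animal was the only one of its group with a SOD2 value, so SOD2 could not be fitted without it. Without 7.4 Gy day 7 replicate 3 the count was 2 on day 7, 0 from day 4 to day 7 and 2 from day 7 to day 12.

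Replicate numbers did not pair the animals: over 30 pairs with the same number, deviations correlated at -0.18 to 0.15, and 4 exceeded 0.1. With the replicate block, the counts were 3 and 6 on day 4 and 3 from day 4 to day 12, where DUOXA2 was no longer called (adjusted p = 0.0522), and no other call was lost. Dim probes (DUOXA2, SLC7A11) sat near background in the controls, which limits their folds.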
